A study of Homo sapiens with 6 samples.

Results

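The genes of the JAK and STAT proteins were examined in maps of open chromatin. The nuclei came from Jurkat, an established cell line derived from a human T-cell leukaemia. The set holds 9 of 20037 protein-coding genes, namely the kinases JAK1, JAK2, JAK3 and TYK2 and the transcription factors STAT3, STAT4, STAT5A, STAT5B and STAT6. A called peak was counted for a gene if it overlapped the RefSeq span of the gene extended by 50 kb to each side. Merging overlapping peaks of all libraries gave 84 open regions in these windows, of 69562 in the whole data set. JAK3 was chosen by its measured pattern of gene-end peaks in these libraries, so its promoter values are given as a description without a test. Chromatin was assayed by ATAC-seq, in which a transposase cuts accessible DNA and inserts sequencing adapters there.

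In the simulated microgravity group (SMG, 3 libraries), nuclei from 50000 Jurkat cells were turned for 30 min in a random positioning machine, which reorients the sample continuously, at 30 degrees per second. In the normal gravity group (NG, 3 libraries) nuclei of the same line were kept at normal gravity. Both groups shared the culture medium, RPMI1640 with 10% fetal bovine serum, a lysis of 3 min and a transposition of 30 min at 37 °C. Isolated nuclei and not living cells were turned, and the sources used here do not give whether rotation and transposition ran together. Nothing in the labels assigns the libraries to separate cultures. A p-value therefore reflects only how far these libraries spread, and that spread may be technical. In a pool of nuclei, fewer nuclei with an open site and a less open site in every nucleus cannot be told apart.

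Cytokine receptors lack a kinase domain of their own and hold JAK kinases on their inner tails. When a cytokine joins the receptor chains, the kinases phosphorylate the chains and the STAT proteins that dock there, and paired STATs then enter the nucleus and bind DNA. In T cells, JAK1 and JAK3 serve the receptors that use the common gamma chain, such as those for IL-2 and IL-7, and STAT5A and STAT5B are their main factors. An open promoter is a site where transcription can start, yet a peak there does not measure transcription.

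The promoter stretches of 5 start sites are printed here because they cover the range of results, from peaks in every library to peaks in none. Each runs 5′ to 3′ on the strand of its gene, from 250 bases before to 50 bases after a RefSeq start (GRCh38.p14), and capitals mark matches to motifs described further below. The JAK3 stretch is chr19:17847933-17848232, minus strand, where a peak was called in the NG libraries alone. The TYK2 stretch is chr19:10380523-10380822, minus strand, and the STAT3 stretch is chr17:42388393-42388692, minus strand. Both lay under strong peaks in all 6 libraries. The JAK1 stretch belongs to the innermost of 3 RefSeq starts, chr1:64966500-64966799, minus strand, with a peak in all 6 libraries. The STAT5B stretch, chr17:42276342-42276641, minus strand, held no peak in any library.
JAK3: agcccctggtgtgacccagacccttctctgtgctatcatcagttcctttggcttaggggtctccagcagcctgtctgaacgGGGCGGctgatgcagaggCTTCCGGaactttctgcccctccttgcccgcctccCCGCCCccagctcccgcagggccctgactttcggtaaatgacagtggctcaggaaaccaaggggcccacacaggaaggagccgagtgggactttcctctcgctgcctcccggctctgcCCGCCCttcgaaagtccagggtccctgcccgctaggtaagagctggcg
TYK2: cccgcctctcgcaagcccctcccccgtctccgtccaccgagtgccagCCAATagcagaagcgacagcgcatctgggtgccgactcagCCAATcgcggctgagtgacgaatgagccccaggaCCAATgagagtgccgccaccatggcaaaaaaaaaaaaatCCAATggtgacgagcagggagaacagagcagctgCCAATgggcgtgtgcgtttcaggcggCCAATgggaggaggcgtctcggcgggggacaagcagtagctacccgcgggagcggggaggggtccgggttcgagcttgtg
STAT3: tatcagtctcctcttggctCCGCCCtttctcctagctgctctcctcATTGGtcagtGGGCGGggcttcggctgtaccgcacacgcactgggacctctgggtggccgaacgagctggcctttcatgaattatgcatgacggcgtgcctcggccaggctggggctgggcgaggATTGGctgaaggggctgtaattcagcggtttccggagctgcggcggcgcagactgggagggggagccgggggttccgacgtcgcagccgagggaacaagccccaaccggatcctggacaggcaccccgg
JAK1 (inner start): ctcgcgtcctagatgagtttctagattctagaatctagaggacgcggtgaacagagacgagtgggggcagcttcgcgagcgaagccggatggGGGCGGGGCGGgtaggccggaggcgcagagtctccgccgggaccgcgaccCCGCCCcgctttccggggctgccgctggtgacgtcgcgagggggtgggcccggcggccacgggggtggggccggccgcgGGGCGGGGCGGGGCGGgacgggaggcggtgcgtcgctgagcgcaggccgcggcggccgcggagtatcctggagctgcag
STAT5B: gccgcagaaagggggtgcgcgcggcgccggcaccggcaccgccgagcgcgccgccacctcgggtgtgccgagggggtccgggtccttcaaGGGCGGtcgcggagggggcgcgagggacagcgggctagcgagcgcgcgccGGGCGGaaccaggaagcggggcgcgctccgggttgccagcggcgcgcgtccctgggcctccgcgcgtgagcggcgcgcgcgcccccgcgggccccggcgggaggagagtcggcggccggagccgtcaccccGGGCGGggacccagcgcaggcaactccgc

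The libraries differed in depth, and this bears on every count of peaks. SMG 1 to SMG 3 held 42222, 42399 and 39624 peaks, and NG 1 to NG 3 held 37782, 43713 and 40601. The lists give no read counts, but the summit pileup (overlapping tags at the highest point of a peak) and the background could be recovered from the deposited fold and −log10 p-value. The lowest background was 1.59 to 1.73 tags in the SMG libraries and 1.17 to 1.77 in the NG libraries, with NG 1 the shallowest. The lowest summit with a peak call was 7 or 8 tags in the SMG libraries and 6 to 8 in the NG libraries. All 11 T cell marker genes examined had a peak within 1 kb of a gene end in all 6 libraries. Of 22 markers of B, myeloid, NK, erythroid and epithelial cells, 2 did, namely BLK and CD68, at mean percentiles of 36.3 and 46.0, and ALAS2 had one in 3 libraries. Peak scores are the authors' own and move with depth, so each was turned into a score percentile, the rank of its −log10 q-value among all peaks of the same library.

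Most of the strong open chromatin around these genes was present in every library. Of the 84 regions, 32 (38.1%) were held by all 6 libraries, against 34.6% of all regions, and 23 (27.4%) by a single library, against 34.9%. The 32 shared regions had a median width of 857 bp and a median score percentile of 74.4. The 23 found in a single library had a median width of 240 bp and a median percentile of 15.9. Of the 19 regions at promoter stretches, 8 lay at those of the members and 11 at those of neighbouring genes, and 14 of the 19 were held by all 6 libraries. None of the 12 regions between genes was. SMG 1 to SMG 3 held 46, 55 and 59 of the regions, and NG 1 to NG 3 held 46, 56 and 52. These were 54.8, 65.5 and 70.2% of the 84 regions in SMG 1 to SMG 3, against 54.8, 66.7 and 61.9% in NG 1 to NG 3. Of all 69562 regions the shares were 59.1, 59.6 and 54.7% in SMG 1 to SMG 3, against 52.8, 61.4 and 57.0% in NG 1 to NG 3. The groups overlapped on both counts, and SMG 3 was the highest library for these windows but the second lowest over all regions.

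**Figure D1:**
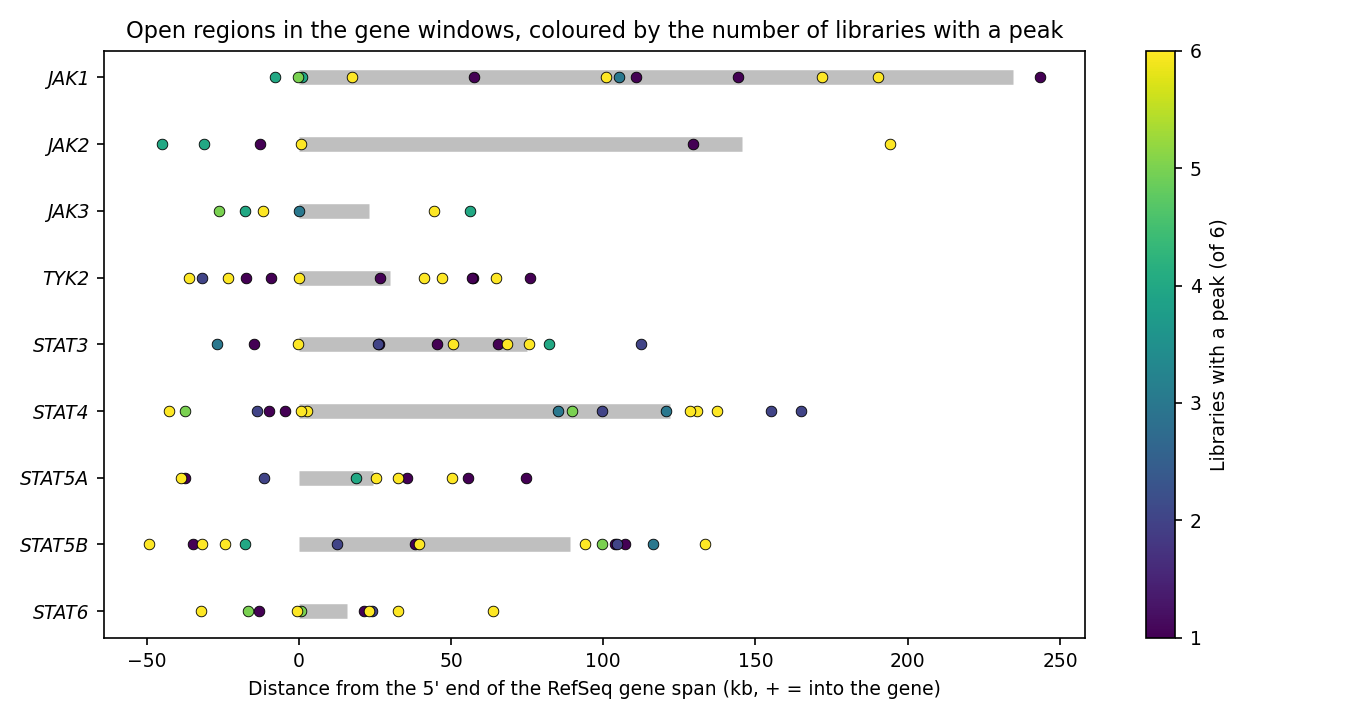
Open regions in the window of each gene, by distance from the outer 5′ end of its RefSeq span (kb, positive into the gene), coloured by the number of libraries with a peak, from 1 to 6. Grey bars show the gene spans. All 9 windows held between 2 and 6 regions present in every library, and the longest gene, JAK1, held 4.

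The share of open chromatin was not highest around the longest genes. TYK2, with a span of 30.0 kb, had 13 regions, 6 of them present in every library, and JAK1, with a span of 235 kb, had 12, with 4 present in every library. Peaks covered on average 3.81% of the TYK2 window and 4.98% of the STAT6 window, at ranks of 93.9 and 98.0 among all protein-coding genes on a scale of 100. They covered 0.912% of the JAK1 window and 0.999% of the JAK2 window, against a median of 1.33% over all genes. Part of the strong peaks in these windows belonged to neighbours. The strongest in the STAT6 window lay at the promoter of NEMP1 (mean percentile 98.2). The region just inside the window edge, in the JAK2 window at 48.2 kb (chr9:5178180-5178971), was held by all 6 libraries at a mean percentile of 83.5, and it is 1 of the 2 such regions of JAK2. The one just outside, at 50.7 kb, was held by a single NG library at 20.9.

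Among the kinases, TYK2, which works at the interferon and IL-12 receptors, had the strongest promoter. Its stretch lay under a peak at percentiles of 93.3, 90.0 and 88.7 in SMG 1 to SMG 3, against 92.0, 93.3 and 90.9 in NG 1 to NG 3. The summits held 50, 53 and 46 tags in the SMG libraries, against 39, 64 and 49 tags in the NG libraries. Values of both groups overlapped on both scales. No peak inside the gene was held by more than 1 library, so its open chromatin, as called here, was at the start site (chr19:10350533-10380572, span).

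JAK2, the kinase of receptors for erythropoietin and interferon gamma, opened at a wide region over 3 of its 4 RefSeq starts (chr9:4984295-4985820). Promoter percentiles were 78.4, 82.1 and 73.8 in SMG 1 to SMG 3, against 78.7, 84.9 and 84.0 in NG 1 to NG 3. The peaks were 1154 to 1503 bp wide, wider than any promoter peak of the other members. The outermost start was touched by a peak in 3 SMG libraries and in 1 NG library, but in NG 1 the peak began 1 bp past the end of that stretch and in NG 2 it began 149 bp past it. That count therefore reflects where the edge of a called peak fell. The innermost start, inside the gene, was at least 55462 bp from any peak.

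JAK1, the partner of JAK3 and of TYK2 at many receptors, has an outer start and a pair of inner starts about 100 kb into the gene. The region at the inner starts (chr1:64966604-64967057) was held by all 6 libraries at percentiles of 48.2, 55.1 and 60.0 in SMG 1 to SMG 3, against 36.0, 70.1 and 66.0 in NG 1 to NG 3. The outer start had peaks at 41.4 and 23.9 in SMG 2 and SMG 3, against 55.1, 47.5 and 28.9 in NG 1 to NG 3. SMG 1 had no peak over that stretch, though 1 of its peaks lay 592 bp away. The strongest region of JAK1 was at neither start but inside the gene (chr1:64876943-64877789), with a mean percentile of 81.5 over the 6 libraries.

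JAK3, the kinase bound to the common gamma chain, was the member whose called peaks differed by group. Its promoter stretch held no peak in the 3 SMG libraries. In the NG libraries it held one of 9 tags and 200 bp in NG 1, of 13 tags and 490 bp in NG 2, and of 9 tags and 310 bp in NG 3. These were weak peaks, at percentiles of 20.2, 28.0 and 10.1 in NG 1 to NG 3, against a median of 83.2 over the promoters open in all 6 libraries. The lowest summit that was called anywhere in the SMG libraries was 7 or 8 tags. In raw tags the JAK3 peaks of NG 1 and NG 3 stood 1 or 2 tags above that level. Raw tags do not compare directly, since the lowest background was 1.17 in NG 1 and 1.42 in NG 3. In the SMG libraries it was 1.59 to 1.73. The lowest called summit was 6 tags in NG 1 and 7 in NG 3.

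The 3 JAK3 peaks also differed in place. They spanned chr19:17847642-17848131 together, but the bases common to all 3 were 51 bp, chr19:17847930-17847980, just inside the gene from the start. Their summits lay 94 bp before the start in NG 1, 17 bp before it in NG 2 and 161 bp after it in NG 3. Of the 300 bases printed above, the peaks took in 197 in NG 1, 199 in NG 2 and 48 in NG 3. No SMG library had a peak within 10 kb of the stretch.

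**Figure D2:**
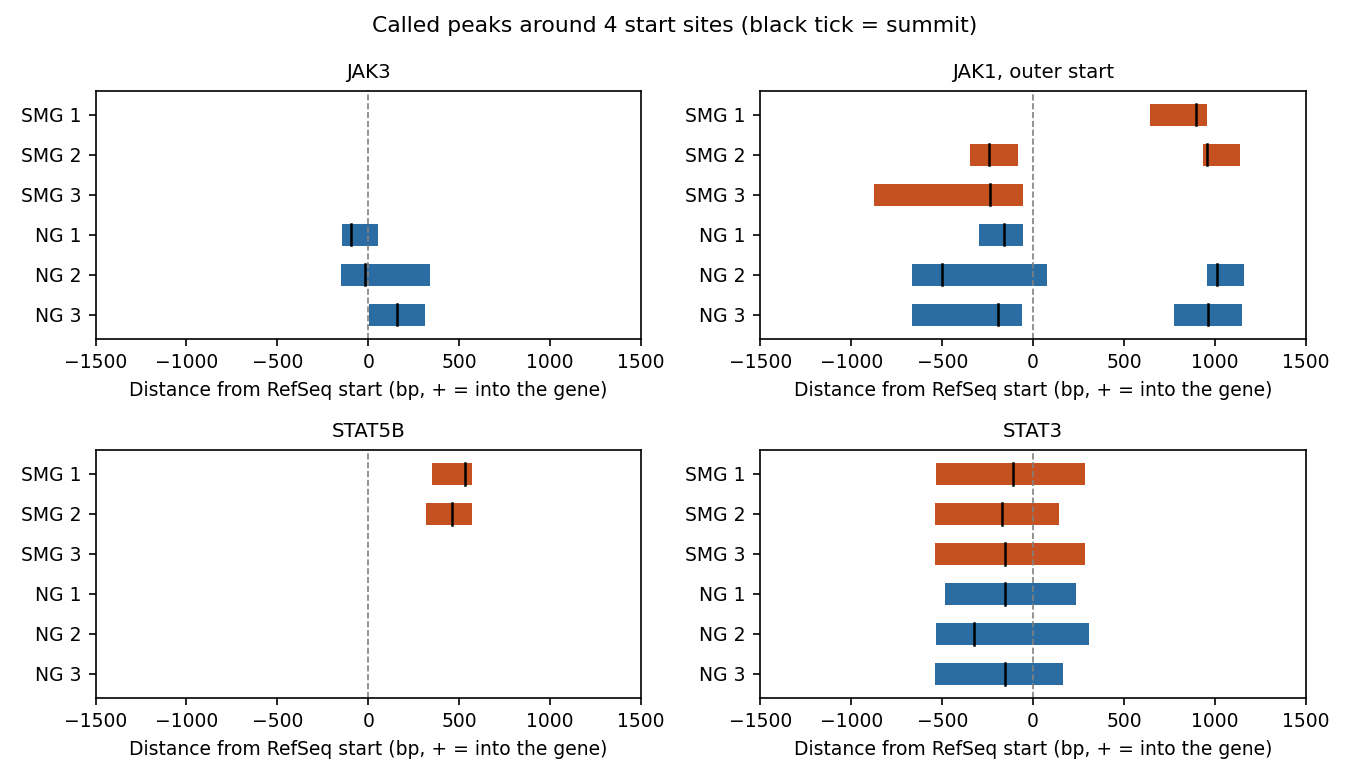
Called peaks (bars) and summits (black ticks) in each library around the RefSeq start of JAK3, JAK1 (outer), STAT5B and STAT3, by distance from the start in bp, with SMG libraries above NG libraries. STAT3 has a peak of similar extent in all 6 libraries, JAK3 has 3 NG peaks that share only 51 bp, and at STAT5B 2 SMG libraries have a peak inside the gene.

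No other member had promoter peaks in every library of one group and in none of the other. Peaks at a promoter in every SMG and no NG library were found for 0 of the 9 genes, against 0.0757% of the 15843 genes with a promoter stretch. Peaks in every NG and no SMG library were found for 1, JAK3, against 0.0694%, and since JAK3 was chosen for this pattern nothing is read from that count. By gene ends in place of stretches, the counts were 0 and 1, against 0.0998% of 20037 genes in each direction.

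STAT3, the main factor of IL-6 type cytokines, had the highest mean promoter percentile of the set, close to that of TYK2. Its percentiles were 91.5, 94.4 and 92.6 in SMG 1 to SMG 3, against 93.3, 92.3 and 94.6 in NG 1 to NG 3. Summits held 48, 64 and 53 tags in the SMG libraries, against 40, 61 and 61 in the NG libraries. The groups overlapped on both scales. A region inside the gene (chr17:42319694-42320451) was also held by all 6 libraries, at a mean percentile of 70.9.

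STAT4, the factor of IL-12 signalling in T cells, opened at its inner start and not at its outer one. The inner start had percentiles of 79.8, 68.3 and 72.6 in SMG 1 to SMG 3, against 63.3, 71.6 and 67.7 in NG 1 to NG 3. The outer stretch held no peak in any library, with the nearest 124 to 320 bp away. A further region about 2 kb inside the gene (chr2:191148540-191149320) was held by all 6 libraries, at 78.6, 57.2 and 81.0 in SMG 1 to SMG 3, against 44.5, 50.8 and 69.2 in NG 1 to NG 3. STAT4 had the most regions of the set, 16, and 6 of these were present in every library.

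STAT6, the factor of IL-4 signalling, had a weak peak at the start given in the table and a strong one farther out. At the start, SMG 2 and SMG 3 had percentiles of 33.4 and 3.02, against 39.7, 10.6 and 10.1 in NG 1 to NG 3, and SMG 1 had none. The strong region (chr12:57111037-57112662) covered the outer end of the RefSeq span of STAT6 and an end of the uncharacterised locus LOC124902946. It merges 11 peaks of the 6 libraries, some over the end of the span and some beyond it. The peaks over the end had percentiles of 78.8, 69.6 and 84.1 in SMG 1 to SMG 3, against 51.6, 72.8 and 73.2 in NG 1 to NG 3, and the groups overlapped. In SMG 1 and NG 2 this was a single long peak, of 1371 and 1626 bp, with its summit beyond the end. Their values of 78.8 and 72.8 therefore score the farther site, while the summits of the other libraries lay near the end. The table gives no STAT6 start there.

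STAT5A and STAT5B, the paired factors of IL-2 and IL-7 signalling, had no promoter peak in any of the 6 libraries. The 2 genes lie beside each other on chromosome 17 with overlapping RefSeq spans, next to STAT3, and 10 of the regions fall in the windows of more than one of the 3. The 3 stretches of STAT5A were 11114 bp or more from any peak. STAT5B had the closer peaks, 303 bp away in SMG 1 and 267 bp away in SMG 2, inside the gene (chr17:42275818-42276075). They were weak, at percentiles of 16.5 and 24.0, with 10 and 12 tags. In SMG 3 and in the 3 NG libraries the nearest peak was 26027 to 27483 bp away. Between the far ends of STAT5A and STAT3, by contrast, a region (chr17:42312237-42313159) was held by all 6 libraries, at 43.5, 61.2 and 59.1 in SMG 1 to SMG 3, against 21.3, 57.3 and 65.2 in NG 1 to NG 3.

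Ordered by mean promoter percentile over the 6 libraries, STAT3 (93.1) and TYK2 (91.4) came first, followed by JAK2 (80.3), STAT4 (70.5) and JAK1 (59.1). The libraries of STAT3 and TYK2 overlapped, as did those of JAK2 and STAT4 and those of STAT4 and JAK1, so neighbours in that order did not differ beyond their spread, except that every TYK2 value was above every JAK2 value. STAT6 and JAK3, with mean percentiles of 19.4 each over 5 and 3 libraries, were far lower. Among the 7113 genes with a promoter peak in all 6 libraries, STAT3 ranked at 77.4 on a scale of 100, TYK2 at 71.8, JAK2 at 43.9, STAT4 at 26.8 and JAK1 at 13.3. The genes with the most similar 6 percentiles were COPZ1 for STAT3 (mean absolute difference 0.476 points), TRIM21 for TYK2 (0.291), NLE1 for JAK2 (1.82), LRRC47 for STAT4 (1.62) and GGT7 for JAK1 (2.57). Such likeness was common at the top of the scale: 2200 genes lay within a mean of 5 points of STAT3, and 27 of JAK1.

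**Figure D3:**
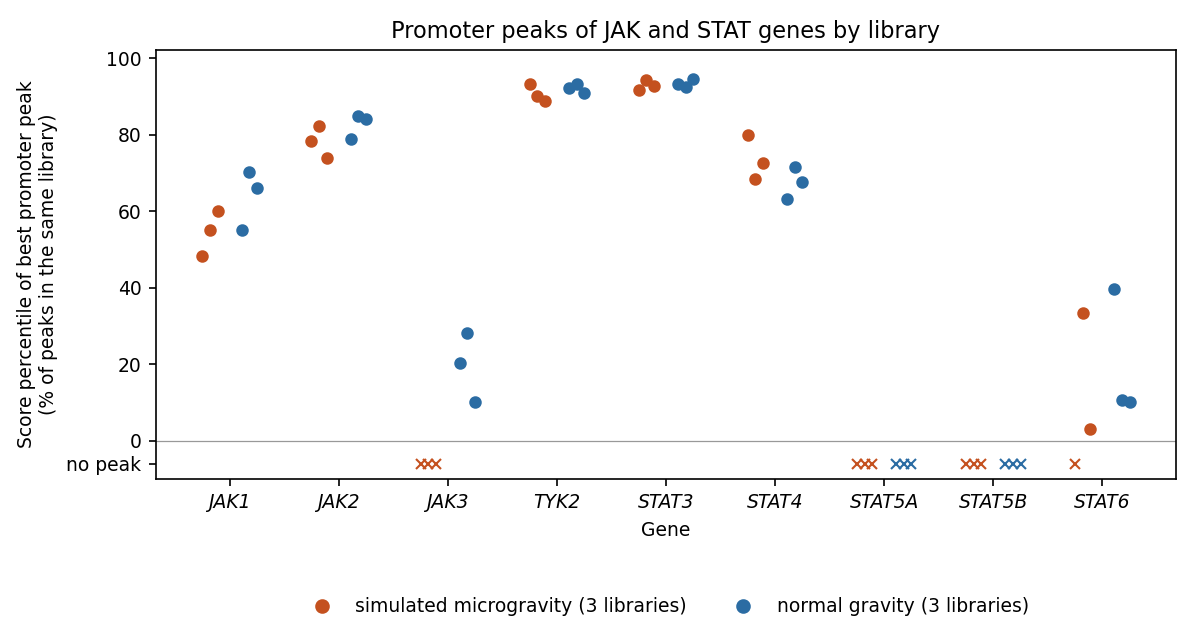
Score percentile of the best promoter peak of each gene in each library (points, SMG left of NG), with crosses for libraries without a peak. STAT3 and TYK2 lie near the top in all 6 libraries, JAK3 has points in NG alone, and STAT5A and STAT5B have crosses in all 6.

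For the 5 genes with a promoter peak in all 6 libraries, the group means were compared by an exact permutation test, two-sided, over the 20 assignments of 6 libraries to 3 and 3, which cannot give a p below 0.1. P-values were adjusted by the Benjamini-Hochberg method over all 7113 such genes. For JAK1 the best peak over its 3 stretches was used, which was at the outer start in NG 1 and at the inner starts in the other 5 libraries. JAK1 averaged 54.4 ± 5.96 in SMG libraries and 63.7 ± 7.78 in NG libraries (SD, n = 3 each), a difference of −9.30 points (exact permutation p = 0.3, adjusted p = 0.936). STAT4 averaged 73.6 ± 5.80 in SMG libraries and 67.5 ± 4.16 in NG libraries (SD, n = 3 each), a difference of 6.05 points (exact permutation p = 0.2, adjusted p = 0.923). JAK2 differed by −4.44 points (exact permutation p = 0.2, adjusted p = 0.923), TYK2 by −1.43 and STAT3 by −0.576. By −log10 q-value the groups overlapped for all 5 genes, whereas 4.2% of the 7113 genes had every SMG value above every NG value and 7.1% had every one below. No gene passed an adjusted p of 0.05, and 804 had the smallest possible p.

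The JAK1 and JAK2 differences depended on how peaks were ranked and scored. Ranked by fold enrichment in place of the −log10 q-value, JAK2 had percentiles of 64.8, 67.4 and 60.1 in SMG 1 to SMG 3, against 73.7, 77.9 and 75.7 in NG 1 to NG 3. JAK1 had 41.0, 46.4 and 50.1 in SMG 1 to SMG 3, against 59.3, 65.1 and 57.9 in NG 1 to NG 3. On that scale every SMG value of both genes lay below every NG value, as for 8.06% of the 7113 genes. The reverse held for 3.94% of genes and 0 of the 5. For JAK1 the NG 1 value came from the outer start. At the inner starts NG 1 had a fold percentile of 27.8, below every SMG value, so the JAK1 groups overlapped there. The differences were −11.7 points for JAK2 and −14.9 for JAK1, each with the smallest possible exact permutation p of 0.1 and an adjusted p of 0.834. At the region of the inner JAK1 starts alone, an alternative chosen after seeing the data, the −log10 q-value percentiles averaged 54.4 ± 5.96 in SMG libraries and 57.4 ± 18.6 in NG libraries (SD, n = 3 each, exact permutation p = 0.9). That difference was −2.93 points.

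Single libraries also moved the promoter differences. STAT4 differed by 2.94 points without SMG 1 and by 3.93 without NG 1, but by 8.68 without SMG 2 and by 8.09 without NG 2. JAK2 differed by −2.29 points without SMG 3 and by −6.45 without SMG 2. JAK1 differed by −6.16 points without SMG 1 and by −6.10 without NG 2, but by −13.6 without NG 1 and by −12.1 without SMG 3. TYK2 differed by −2.76 points without SMG 1, by −0.456 without SMG 3 and by −0.804 without NG 2. The STAT3 difference was within 1 SD of 0 and ranged between −1.35 without SMG 2 and 0.0735 without SMG 1, with 0.0217 without NG 3.

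The total of open chromatin around a gene overlapped between the groups for all 9 genes. Bases under peaks in a window are a sum over calls, so they rise with the number and width of peaks a library yields. STAT4 had 5498, 6599 and 7843 bp under peaks in SMG 1 to SMG 3, against 4836, 6863 and 5751 bp in NG 1 to NG 3. STAT3 had 2814, 3582 and 3896 bp in SMG 1 to SMG 3, against 2137, 3403 and 2944 bp in NG 1 to NG 3. NG 1, the shallowest library, had the fewest covered bases in the windows of JAK1, JAK2, TYK2, STAT3, STAT4, STAT5A, STAT5B and STAT6, while in that of JAK3 the fewest were in SMG 2. The part of depth in the SMG minus NG differences was not tested.

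Group means of covered bases differed by 830 bp for STAT4 (6647 ± 1173 in SMG libraries, 5817 ± 1015 in NG libraries, SD, n = 3 each, exact permutation p = 0.5). They differed by 603 bp for STAT3 (3431 ± 557 in SMG libraries, 2828 ± 641 in NG libraries, SD, n = 3 each, exact permutation p = 0.3). Differences of the other 6 genes tested were 170 bp for STAT6, 229 for STAT5B, 290 for JAK1, 332 for JAK2, 423 for STAT5A and 547 for TYK2. All 8 were positive, and each had an adjusted p of 1 by the Benjamini-Hochberg method over 20037 genes. The share of all genes with a positive difference was not computed. The 8 are not separate, since the windows of STAT3, STAT5A and STAT5B share regions. The groups overlapped for all 8, whereas 6.29% of all genes had every SMG value above every NG value and 1.41% had every one below. No gene passed an adjusted p of 0.05, and 1542 genes had the smallest possible exact permutation p of 0.1. Direction rested on single libraries for 3 genes: without NG 1 the difference became −107 bp for JAK1, −437 for STAT5B and −83.0 for STAT6. Without SMG 2 it was −15.3 bp for JAK1 and −41.7 for STAT5B, and without SMG 3 it was −5.67 for STAT6. Size rested on them for the others. STAT4 differed by 232 bp without SMG 3 and by 1404 without SMG 1, and STAT3 by 257 bp without NG 1 and by 911 without SMG 1. TYK2 differed by 115 bp without SMG 3, STAT5A by 27.0 bp without NG 1 and JAK2 by 158 bp without NG 1. JAK3, not tested, had 1578, 1505 and 2432 bp in SMG 1 to SMG 3, against 1622, 3126 and 2918 bp in NG 1 to NG 3.

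**Figure D4:**
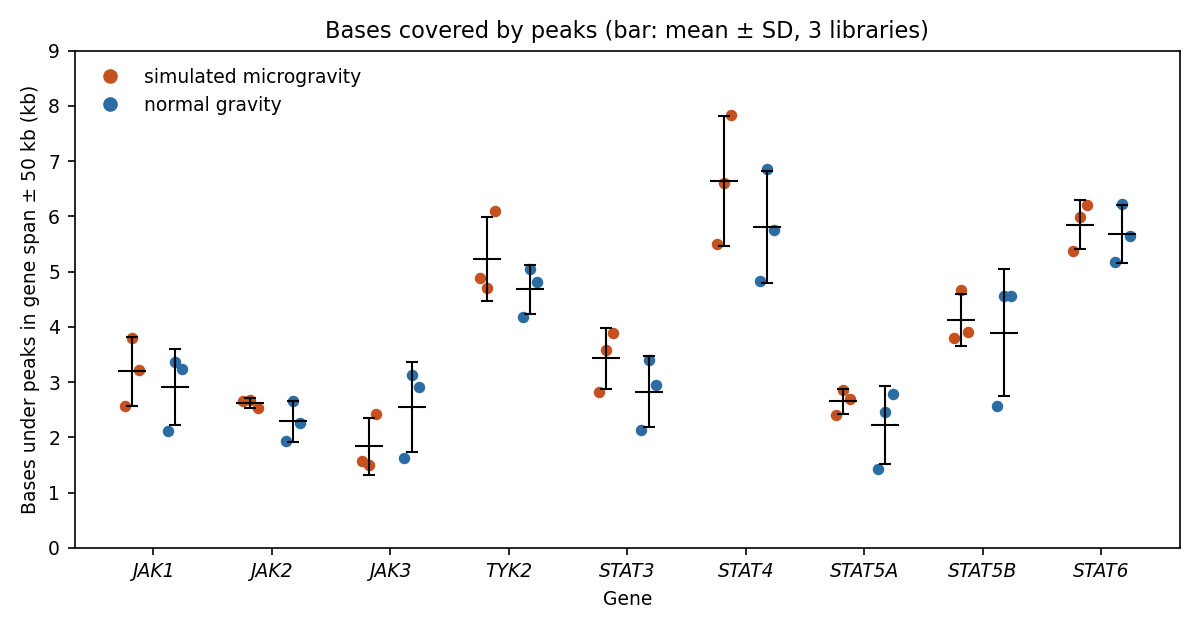
Bases under peaks (kb) in the gene span plus 50 kb to each side, per library (points) with the mean and SD of 3 libraries per group (bars), SMG left of NG. The groups overlap for every gene, and NG 1 is the lowest NG point for all 9 genes.

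Few single regions were divided by group. A peak in every SMG and no NG library was found for 0 of the 84 regions, against 0.411% of all 69562. The reverse was found for 1 region, the JAK3 promoter, against 0.26%. JAK3 was chosen by its gene-end pattern, so nothing is read from that count. The same region also enters the count of regions held by more NG libraries. Regions held by at least 2 more SMG than NG libraries numbered 4 (4.76%), against 3.91% of all regions, and regions held by at least 2 more NG libraries numbered 3 (3.57%), against 3%. By the distance of the summit from the nearest start, negative for upstream, the 4 lay at −7.77 kb from JAK1, −31.1 kb from JAK2, −13.7 kb from STAT4 and just inside STAT5B. At the first of these (chr1:65075176-65075688) the percentiles were 65.9, 16.4 and 65.3 in SMG 1 to SMG 3, against 38.0 in NG 2 alone. The 3 included the JAK3 promoter and a region beyond the far end of JAK3 (chr19:17791379-17791983). The region beyond the far end had a percentile of 20.2 in SMG 3 alone, against 35.3, 31.4 and 50.0 in NG 1 to NG 3.

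The promoter of STAT5B stood out by its base composition. Of its 300 bases 82.0% were G or C, with 55 CpG, at rank 98.5 on a scale of 100 among 22199 stretches of protein-coding genes. Peaks in all 6 libraries were called at 57.4% of stretches with 65 to 70% GC, at 33.1% of those with 75 to 80%, at 8.41% of the 678 with 80 to 85%, and at 2.53% of those above. Stretches poor in GC were also seldom open: 7.31% of those with 40 to 45% had a peak in all 6 libraries. STAT3 (65.3% GC), TYK2 (63.0%) and JAK3 (63.7%) lay near the top of that curve. STAT5A, also without a peak, had stretches of 56.3, 62.3 and 75.0% GC, in the range where many promoters were open. One of the inner JAK1 stretches had a peak in all 6 libraries at 41.7% GC, though the next start, 74.7% GC, lay beside it under the same peak. Whether base composition affects calls at these promoters was not tested.

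**Figure D5:**
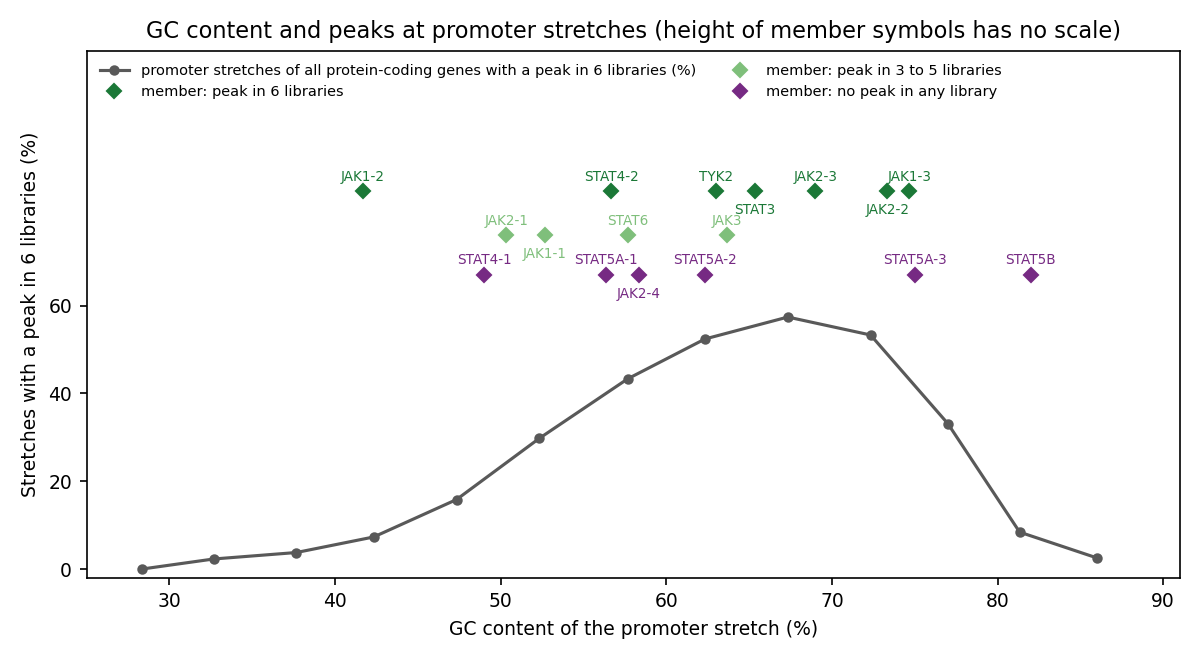
Share of promoter stretches with a peak in all 6 libraries (%, line) by GC content of the 300-base stretch (%), over 22199 stretches. Diamonds above the line place the 17 stretches of the JAK and STAT genes by GC content only, coloured by the number of libraries with a peak, and STAT5B is the farthest to the right, at 82.0%.

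In the printed stretches 8 motifs were searched on both strands, and a match is a description of letters, not a binding site. GGGCGG, the box bound by Sp factors, occurred in 7 of the 17 stretches of the set and in 56.3% of all 22199. It occurred 6 times at the inner JAK1 start, partly in overlapping copies, and 3.81% of all stretches held at least 6. JAK3 and STAT5B held 3 copies each, and 20.7% of all stretches held at least 3. CCAAT, the box bound by NF-Y, occurred in 3 stretches and in 34.7% of all. TYK2 had 6 copies of it, all in the same direction between positions −203 and −30 from the start. At least 6 copies were held by 24 of all 22199 stretches (0.108%). CCGGAAG, bound by ETS factors, occurred at JAK3 and at the outer JAK1 start, and in 12.8% of all.

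TTCNNNGAA, the element that STAT dimers bind, occurred in 0 of the 17 stretches and in 6.79% of all. TGTGGT, bound by RUNX factors, occurred in 1 of the 17, at STAT6, and in 11.3% of all. No stretch of the set held TGACGTCA, bound by CREB and ATF factors and present in 2.26% of all. The same was true of the E-box CACGTG, present in 8.34% of all stretches of the table. The TATA box, searched as TATAAA, was likewise found in none of the 17 and in 9.47% of all. The open TYK2 and STAT3 promoters and the STAT5B promoter without a peak thus shared no single motif, since STAT3 and STAT5B held GGGCGG and TYK2 did not.

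The rest of the pathway was described by peaks within 1 kb of either gene end, from 4 lists of 60 genes in all, each matched to the RefSeq table. A gene-end peak in all 6 libraries was found for 35 (58.3%), against 46.6% of all protein-coding genes, and in none for 15 (25%), against 39.7%. Among the 9 members themselves it was 7, all but STAT5B, with none, and JAK3. A peak at either end counts, so a gene can be counted by its far end alone. STAT5A was counted through the region between its far end and that of STAT3, while its promoter stretches held no peak. None of the 60 had a gene-end peak in every SMG and no NG library, or the reverse. At least 2 more SMG than NG libraries had one at 2 genes, against 0.948% of all genes, and at least 2 more NG libraries at 1 gene, against 0.784%.

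STAT2, a factor of type I interferon signalling, had gene-end percentiles of 96.2, 98.9 and 96.4 in SMG 1 to SMG 3, against 95.7, 95.6 and 95.8 in NG 1 to NG 3. It was near the top of both groups, and every SMG value lay above every NG value. Of the 35 list genes open in all 6 libraries, 3 had every SMG percentile above every NG percentile, against 4.33% of the 9333 such genes, and 4 had every one below, against 6.62%. No test was run on these percentiles.

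Of 24 receptor chains, 11 were open at a gene end in all 6 libraries and 8 in none. The strongest were IFNGR1 and IFNAR1, chains of the interferon gamma and type I interferon receptors, at mean percentiles of 95.0 each, and IL6ST, the shared chain of IL-6 type receptors, at 91.7. IL2RG, the common gamma chain that holds JAK3, was open in all 6, at 78.3, 64.1 and 86.2 in SMG 1 to SMG 3, against 75.4, 60.7 and 63.1 in NG 1 to NG 3. IL2RB, which pairs with it in the IL-2 receptor, had none in any library, nor had IL4R, IL12RB2, IL23R, IL13RA1, CSF2RB, LIFR and OSMR. IL12RB1 had percentiles of 16.5, 24.0 and 18.3 in SMG 1 to SMG 3, against 31.4 in NG 2 alone. IFNGR2 had 8.63 and 19.6 in SMG 1 and SMG 3, against none in NG. IL7R, the IL-7 receptor chain, had 34.9 in SMG 3 alone, against 15.7, 2.43 and 50.0 in NG 1 to NG 3.

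Of 18 negative regulators, 11 were open in all 6 libraries. PTPN1, a phosphatase that acts on JAK2 and TYK2, had the highest mean percentile (95.6), followed by SH2B3, an adaptor that restrains JAK2 (92.8), and SOCS4, of the family of cytokine signalling suppressors (87.6). SOCS6, PIAS2 and PTPRC had none in any library. Of 17 target genes, 12 were open in all 6, led by BCL2L1, which protects cells from apoptosis (96.7), PIM2, a survival kinase (89.6), and IRF1, an interferon-induced factor (89.2). CCND1, CCND2 and GATA3 were among those with none. CISH, a STAT5 target that feeds back on the pathway and stands in both lists, had 71.9, 77.4 and 77.8 in SMG 1 to SMG 3, against 48.0, 72.0 and 64.2 in NG 1 to NG 3. The groups of CISH overlapped, while those of 5 other regulators and targets did not. MCL1, which protects cells from apoptosis, had 69.8, 77.6 and 65.4 in SMG 1 to SMG 3, against 7.003, 44.5 and 36.3 in NG 1 to NG 3. BCL2, of the same family, had 55.7, 54.3 and 44.0 in SMG 1 to SMG 3, against 70.8, 66.8 and 57.6 in NG 1 to NG 3. BCL6, a transcriptional repressor, had 56.0, 39.3 and 63.3 in SMG 1 to SMG 3, against 67.1, 71.6 and 68.5 in NG 1 to NG 3. MCL1 was thus higher in every SMG library, and BCL2 and BCL6 lower. PTPN1 averaged 94.3 in SMG libraries and 96.8 in NG libraries, and SOCS4 averaged 84.5 in SMG libraries and 90.7 in NG libraries, both with every SMG value below every NG value. A promoter away from the outer ends of a gene is not counted in this measure.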

How the data were processed

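ATAC-seq peaks of 6 libraries were analysed, 3 per group. The build was hg38, and MACS2, SAMtools, Bowtie, BWA and FastQC were run, per the submitters' processing notes. The sources used here do not give versions, settings, the handling of duplicates or whether reads were shifted to the transposase cut. Each library has its own deposited list of 10 columns: position, name, an integer score, a fold enrichment (a linear ratio), the −log10 p-value, the −log10 q-value and the summit offset. Peak names of SMG 3 carry the word "normalized", which no source used here explains. The score that the authors deposited was 10 times the −log10 q-value for at least 99.955% of peaks in each list.

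From these, summit pileup and local background were recovered with the formulas of MACS2 for 99.9% or more of the peaks of each library, within 0.001 of the deposited −log10 p-value. Peaks overlapping by at least 1 bp were merged into regions. Score percentile is 100 times the average rank by −log10 q-value over the number of peaks in the library. RefSeq tables of the assembly GRCh38.p14 gave gene spans and promoter stretches, and all 9 genes matched. They give no exons, so a region inside a gene is not placed in an exon or intron. Exact permutation tests ran over all genes with Benjamini-Hochberg adjustment (Python 3.11.15, numpy 2.4.6, pandas 2.3.3, scipy 1.17.1, matplotlib 3.10.9) and were tested on simulated data. Same-numbered libraries of the groups had correlations of −0.0128, 0.0633 and −0.00573 in covered bases, as deviations from the group means. These values show no pairing by number, but they cannot tell whether same-numbered libraries were handled together.

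The genes, lists and tests were chosen with earlier results of these data known. Named were all members, and of each list the 3 genes with the highest mean percentile among those open in all 6 libraries, genes differing by 2 or more libraries between the groups, and genes open in none. For each member with a promoter peak in all 6 libraries the closest other gene was named. IL2RG, CISH, MCL1, BCL2, BCL6, BLK, CD68 and ALAS2 were named in addition, after their values were seen. Some items that the rule would name are not reported here. Alternatives were other flanks and windows, a −log10 q-value of at least 5, ranks by fold, bases scaled to the library, a replicate block, and leaving out each library.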

Additional observations from a re-analysis of the deposited data

How the results depend on the processing

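Of the values that answer a comparison, 23 of 29 under other settings, beside those that leave out a library, stayed within 1.5 times the value reported. Some of the 23 could not move, namely the counts with a larger required overlap and the promoter counts ranked by fold. Ranking does not alter which peaks were called. Counts of regions and member promoters in every NG and no SMG library also include JAK3, chosen for that pattern. The share is therefore no measure of stability. The number of regions in every NG and no SMG library was 2 with a flank of 100 kb and 0 with a −log10 q-value of at least 5, and under that minimum the members with such a promoter also numbered 0. With bases divided by the total covered in the library, 1 member, JAK2, had groups that did not overlap. The share of all genes with such groups was not computed on that scale or with a library left out. Nothing is therefore read from such counts of members. With a window of 3 kb, 9 list genes were open in none and 1 in NG only. Leaving out 1 library at a time gave 0 to 1 SMG-only and 1 to 2 NG-only regions, 0 to 1 members whose covered bases did not overlap, and 0 to 1 list genes open in SMG only and in NG only. Covered bases changed sign for STAT6 with a flank of 10 kb (−97.0 bp) and when divided by that total (−8.47 per Mb covered), and for JAK2 with the minimum on −log10 q-value (−69.0 bp). With 1 library left out, the differences ranged between −107 and 608 bp for JAK1, −437 and 564 bp for STAT5B, and −83.0 and 442 bp for STAT6. Ranked by fold, the promoter groups of JAK1 and JAK2 did not overlap (−14.9 and −11.7 points, exact permutation p of 0.1 each). For JAK1 this held with NG 1 scored at the outer start, and not at the inner starts alone. By fold the STAT3 difference was 0.653 points. Ranked by −log10 q-value it was −1.35 to 0.0735 with 1 library left out. The cause was not tested. Covered bases showed no pairing of the libraries by number. With the replicate block, the smallest exact permutation p is 0.25. No gene passed without the block and none could pass with it, so this setting could not change a call. For covered bases 2 members (JAK2 and STAT3) had all 3 pairs in the same direction (differences of 332 and 603 bp). The share of all genes with such pairs was not computed, so nothing is read from that count. Asking for a larger overlap of peak and region gave identical counts, since each peak lies wholly inside its region. Depth limits the weakest peaks: summits under 6 to 8 tags were not called.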
